A study of Mus musculus with 6 samples.

Results

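The 9 genes described here encode proteins of central nervous system myelin or proteins that oligodendrocytes need to make it. They are Mobp, Mbp, Mal, Mog, Mag, Cnp, Cldn11, Ugt8a and Sox10. They were taken by name, and each was measured by every probe set whose platform annotation gives that gene symbol alone. All 9 had such a probe set, 16 probe sets in all, out of 12422 probe sets and 8251 named genes on the array. The list was selected on the mutant and wild-type log2 values of these same arrays, in that those values were known when the genes were named. The differences below are therefore descriptions and carry no test of their own.

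Each of 6 Affymetrix arrays measured the striatum of 1 mouse, 3 of genotype Hdh4/Q80 and 3 wild-type littermates. According to the labels every mouse was a C57BL/6 female aged 12 months. The Hdh4/Q80 line, called transgenic in the labels, models Huntington's disease, a disorder of an expanded glutamine tract in huntingtin in which the striatum degenerates. The sources used here do not give its zygosity. Mutants are numbered 7 to 9 and wild types 4 to 6, after the sample titles.

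Myelin is the stacked membrane that oligodendrocytes wrap around axons, and it speeds the conduction of impulses. Its inner and outer membrane faces are held together by abundant small proteins, its lipids are rich in galactosylceramide, and Sox10 drives many of its genes. The striatum is crossed by bundles of myelinated fibres. In bulk RNA from it, fewer oligodendrocytes and less myelin RNA per oligodendrocyte cannot be told apart. As a check of the labelled tissue, probe sets were ranked by mean log2 value. The brightest probe sets of Penk, the enkephalin precursor of striatal neurons, and of Mbp stood at percentiles 100 and 99.8 of all probe sets. Not every marker was bright: those of the striatal marker Rgs9 and the myelin gene Cnp stood at 22.3 and 22.9. Such ranks describe probe signal and do not compare the amounts of different transcripts.

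Mobp and Mal had all 3 mutants below all 3 wild types on their brightest probe set. The RefSeq promoter windows of this pair, from 250 bases before the annotated start to 50 after it (build GRCm38.p6), are shown because Sox10 is itself one of the 9 genes and these are the members with separate groups. Capitals mark the Sox-type motif ACAAAG, or CTTTGT when read on the other strand. The motif was picked after the sequences had been seen. Mobp lies at chr9:120149492-120149791 on the + strand and Mal at chr2:127656646-127656945 on the - strand.
Mobp: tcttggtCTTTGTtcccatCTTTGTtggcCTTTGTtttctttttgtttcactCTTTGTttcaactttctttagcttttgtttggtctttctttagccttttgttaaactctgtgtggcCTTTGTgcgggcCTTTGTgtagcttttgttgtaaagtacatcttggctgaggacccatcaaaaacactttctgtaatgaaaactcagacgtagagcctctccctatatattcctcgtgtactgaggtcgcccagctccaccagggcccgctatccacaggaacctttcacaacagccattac
Mal: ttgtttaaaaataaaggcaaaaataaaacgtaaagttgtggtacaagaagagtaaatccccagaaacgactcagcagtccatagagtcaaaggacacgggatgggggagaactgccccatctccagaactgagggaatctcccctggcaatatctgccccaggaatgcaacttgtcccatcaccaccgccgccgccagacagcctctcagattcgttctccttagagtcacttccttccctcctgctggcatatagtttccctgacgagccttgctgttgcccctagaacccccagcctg

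The Mobp window held 6 matches, all on the strand opposite to the gene and all between 243 and 120 bases before the start. No other of the 32851 windows of this length held 6, and 18.7% held at least 1. Because the motif was picked with the Mobp window in view, these shares do not measure how unusual that window is. The Mal window held 0. RefSeq windows were found for 7 of the 9 genes, 9 windows in all. Mag had 3 windows for different starts, and a single match lay in both of the overlapping windows, 126 and 67 bases before their starts. Cnp had 1 match, 167 bases before its start. The windows of Mog, Cldn11 and Ugt8a held 0. A match describes the letters in the window and says nothing of whether a Sox protein binds there.

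**Figure D1:**
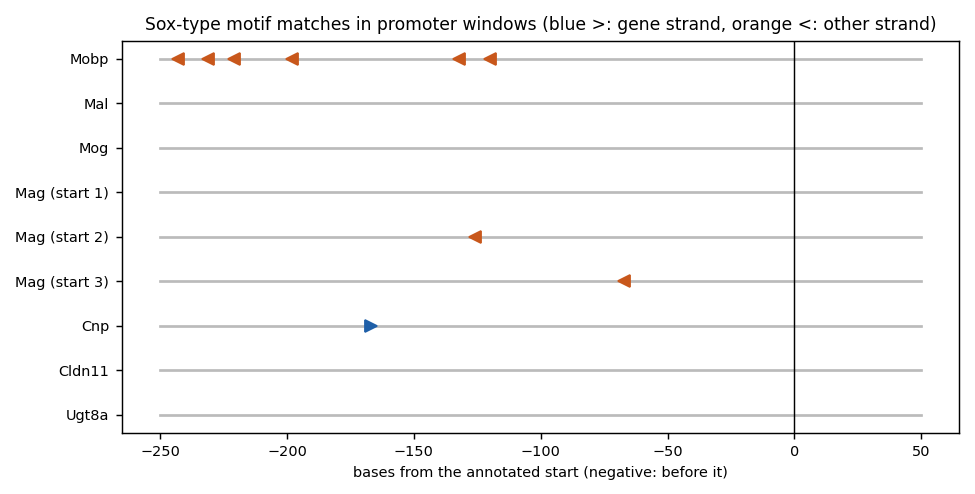
Positions of the Sox-type motif in the promoter windows of 7 myelin genes, in bases from the annotated start (grey line: window from 250 before to 50 after it; arrowheads: matches on either strand). Mobp has 6 matches, Mag and Cnp have single ones, and Mal, Mog, Cldn11 and Ugt8a have none.

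Mobp, a small basic protein of compact myelin, had the lowest difference among the 9 genes and the most probe sets. Its brightest probe set, 100536_at, read 12.16, 12.08 and 12.29 (log2) in wild types 4, 5 and 6, and 11.91, 11.77 and 11.91 in mutants 7, 8 and 9. The groups did not overlap. The means were 12.17 ± 0.103 and 11.86 ± 0.0808 (SD, n = 3 mice each), giving a mutant minus wild-type difference of -0.31 (95% interval -0.49 to -0.13), which is 1.24-fold lower. With any 1 mouse left out the difference ran from -0.36 to -0.26.

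The other 3 Mobp probe sets had the same sign and different sizes. Probe set 99047_at read 10.97, 11.30 and 11.37 in wild types 4, 5 and 6, and 11.10, 10.51 and 10.53 in mutants 7, 8 and 9, a difference of -0.50 ± 0.159 (SE). Mutant 7 lay above wild type 4, so the groups overlapped, while mutants 8 and 9 lay below every wild type. Probe set 99048_g_at had the same order of groups, with wild types at 9.90, 10.16 and 10.32 and mutants at 9.96, 9.53 and 9.37, a difference of -0.51 ± 0.15.

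The fourth Mobp probe set, 99046_at, behaved differently within the mutants. It read 9.21, 9.19 and 9.16 in the wild types, and 9.06, 9.34 and 8.71 in mutants 7, 8 and 9. Mutant 8 was the highest of the 6 mice here and the lowest on 100536_at and 99047_at. The difference of -0.15 ± 0.133 became 0.01 without mutant 9 and -0.30 without mutant 8. With array weights the difference fell in size to -0.22 on 99047_at and to -0.27 on 99048_g_at. The 4 differences of Mobp spanned 0.35. That was percentile 96.4 among the 2073 genes with several probe sets, whose median span was 0.11. A span tends to widen with the number of probe sets, which was not matched here, so nothing is read from this percentile.

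Mal, a proteolipid of compact myelin and lipid rafts, had 1 probe set, 99089_at. The wild types read 9.17, 9.18 and 9.19 and the mutants 8.95, 8.88 and 9.01. The groups did not overlap, and the wild types lay within 0.03 of each other. The means were 9.18 ± 0.0131 and 8.95 ± 0.0647, and the difference was -0.23 (95% interval -0.39 to -0.08), which is 1.18-fold lower. With 1 mouse left out it ran from -0.26 to -0.20.

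Mbp, the basic protein that compacts the cytoplasmic faces of the myelin membrane, overlapped between the groups on both of its probe sets. The bright one, 96311_at, read 12.33, 12.22 and 12.21 in the wild types and 12.24, 12.39 and 12.16 in the mutants. The groups overlapped fully, with means of 12.26 ± 0.0664 and 12.26 ± 0.114 and a difference of 0.01 (95% interval -0.17 to 0.19). The sign of this near-zero difference turned in 4 of 12 alternative settings. The other Mbp probe set, 96310_at, read 8.59, 8.40 and 8.24 in the wild types and 8.45, 8.44 and 8.73 in the mutants, a difference of 0.13 (interval -0.11 to 0.38). That difference was 0.04 without mutant 9, 0.05 without wild type 6 and 0.22 without wild type 4. Mbp is spliced into many forms, and the sources used here do not say which of them each probe set detects.

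**Figure D2:**
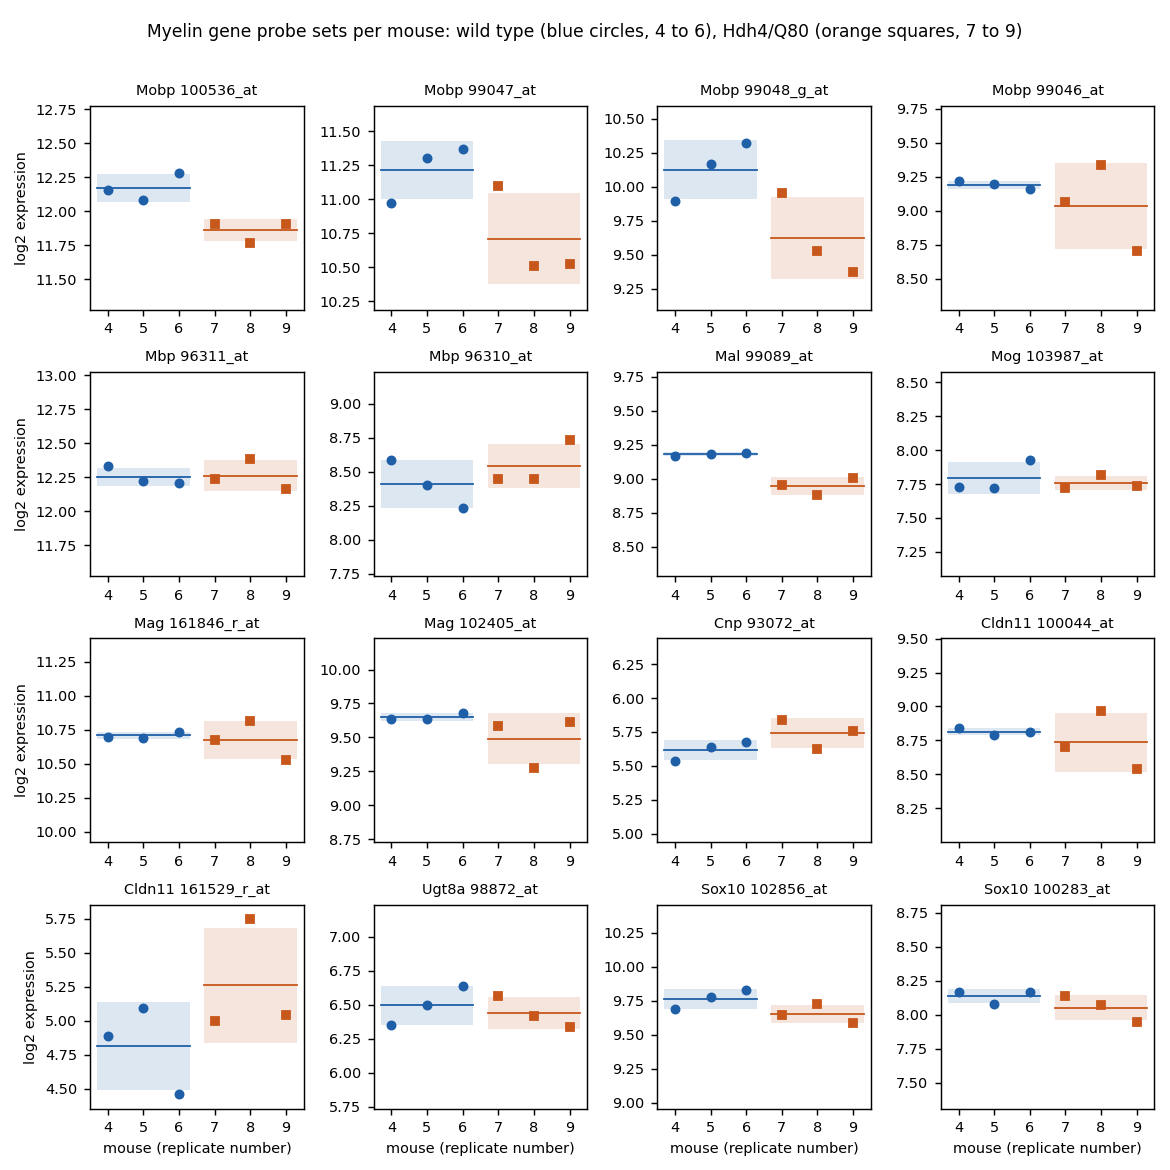
Log2 expression of the 16 probe sets of the 9 myelin genes in each mouse (blue circles, wild type 4 to 6; orange squares, Hdh4/Q80 7 to 9); lines are group means, shading is 1 SD, and every panel spans the same log2 range. The mutants lie below all wild types for Mobp 100536_at, Mal and Mag 102405_at, and mutants 8 and 9 lie far apart on Mobp 99046_at and Cldn11 100044_at.

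Mag and Mog are immunoglobulin-family proteins, Mag on the membrane facing the axon and Mog on the outermost myelin surface. The dimmer Mag probe set, 102405_at, read 9.63, 9.64 and 9.68 in the wild types and 9.58, 9.28 and 9.62 in the mutants. The 3 mutants lay below the wild types, but mutant 8 carried most of the difference of -0.16 ± 0.0939, which was -0.05 without it and -0.08 with array weights. The brighter Mag probe set, 161846_r_at, read 10.70, 10.69 and 10.73 in the wild types and 10.68, 10.82 and 10.53 in the mutants, a difference of -0.03 (interval -0.22 to 0.15). On it mutant 8 was the highest mouse, whereas on 102405_at it was the lowest. The suffix _r marks a probe set built under relaxed selection rules. Mog, with 1 probe set, read 7.73, 7.72 and 7.93 in the wild types and 7.72, 7.82 and 7.73 in the mutants, a difference of -0.03 (interval -0.21 to 0.14). The groups overlapped, and without wild type 6 the difference was 0.03.

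Cnp, an enzyme of the cytoplasmic channels of non-compact myelin, and Cldn11, the claudin of myelin's tight junctions, overlapped between the groups on every probe set. The Cnp probe set read 5.54, 5.64 and 5.67 in the wild types and 5.84, 5.62 and 5.76 in the mutants, a difference of 0.12 (interval -0.05 to 0.30), or 0.07 without mutant 7 and 0.19 with array weights. It was dim: the lower quartile of each array lay between 5.79 and 5.86. Cldn11 100044_at read 8.84, 8.79 and 8.81 in the wild types, and 8.70, 8.97 and 8.54 in mutants 7, 8 and 9. The wild types were close together while mutants 8 and 9 lay on either side of them, and the difference was -0.08 (interval -0.31 to 0.15), or -0.19 without mutant 8 and 0.02 without mutant 9. The second Cldn11 probe set, 161529_r_at, had the opposite sign at 0.45 (interval -0.01 to 0.91). Its signal was low, with means of 4.81 ± 0.322 in wild type and 5.26 ± 0.421 among the mutants, and mutant 8 was its highest mouse at 5.75. The difference was 0.20 without mutant 8, 0.27 without wild type 6 and 0.28 with array weights. RMA, the authors' summary method, compresses differences at low signal, and neither Cnp nor this Cldn11 probe set sets a firm limit.

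Ugt8a makes galactosylceramide, the characteristic lipid of myelin, and Sox10 is a transcription factor of the oligodendrocyte lineage. Ugt8a read 6.35, 6.50 and 6.64 in the wild types and 6.56, 6.42 and 6.34 in the mutants, a difference of -0.06 (interval -0.26 to 0.15). Its groups overlapped, and the difference ran from -0.13 without wild type 4 to 0.01 without wild type 6. The brighter Sox10 probe set, 102856_at, read 9.69, 9.78 and 9.83 in the wild types and 9.65, 9.72 and 9.59 in the mutants, a difference of -0.11 (interval -0.28 to 0.05). The other, 100283_at, read 8.17, 8.08 and 8.17 in the wild types and 8.14, 8.07 and 7.95 in the mutants, a difference of -0.09 (interval -0.25 to 0.08). In both the groups overlapped. The difference of 102856_at was -0.07 after quantile or cyclic loess normalization, and that of 100283_at was -0.03 without mutant 9 and -0.02 with array weights.

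**Figure D3:**
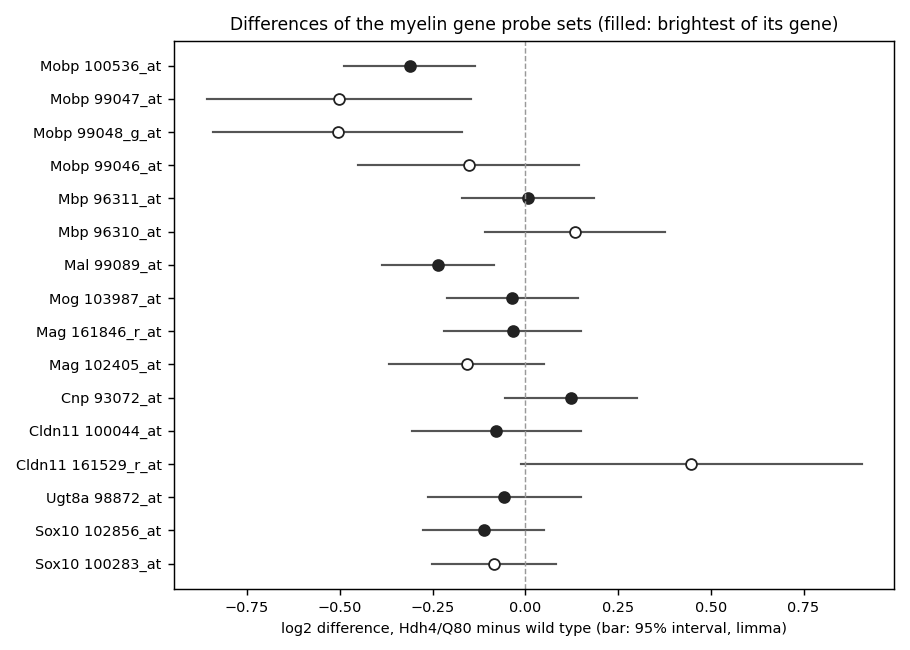
Mutant minus wild-type difference of each probe set on the log2 scale with limma's 95% interval (filled circles, brightest probe set of its gene; open circles, the others). All 4 Mobp probe sets lie below 0, both Mbp probe sets at or above 0, and the 2 Cldn11 probe sets on opposite sides.

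Across the 9 genes on their brightest probe sets, 7 differences were below 0, against 53.3% of all 8251 genes, and the median was -0.06, against -0.01 for all genes. Mice left out moved this median: it was -0.10 without mutant 8, -0.01 without mutant 9 and -0.02 without wild type 6, and -0.10 with array weights. Limma's test, Benjamini-Hochberg adjusted over the table, called 0 of 12422 probe sets (0%), and so 0 of these 16; the smallest adjusted p of the table was 0.857. Limma's unadjusted p was under 0.05 for 634 of the 12422 probe sets, 4 of them among the 16. These were Mobp 100536_at, 99047_at and 99048_g_at, and Mal 99089_at. All 3 mutants lay below all 3 wild types on 3 of the 16 probe sets, where 5.05% of all probe sets had that order, and above them on 0 of the 16, where 6.67% did. By gene, 2 of 9 lay below, against 5.22% of genes, and 0 above, against 5.87%. Since the genes were named with this contrast known, nothing is read from these shares.

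Probe sets of 1 gene had the same sign in 4 of the 5 genes with several, against 48% of the 2073 such genes on the array. The exception was Cldn11. The spans of the differences were 0.03 for Sox10, 0.12 for Mag, 0.13 for Mbp, 0.35 for Mobp and 0.53 for Cldn11. Mobp had 4 probe sets and each of the others 2. The genes were named with this contrast known, and number of probe sets and size of difference were not matched. Nothing is therefore read from the distance to the 48%.

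The mice were not extreme equally often on the 16 probe sets. Wild type 6 was the highest of the 6 mice on 9 of the 16 probe sets, where 14.5% of all probe sets had it highest. Mutant 9 was the lowest on 8, against 20.3% of all probe sets. Mutant 8 was the highest on 5 and the lowest on 4, close to its shares of 28.1% and 33.7% over all probe sets. On 4 probe sets, Mobp 99046_at, Mbp 96311_at, Mag 161846_r_at and Cldn11 100044_at, mutant 8 was the highest and mutant 9 the lowest mouse, an order held by 9.27% of all probe sets. These counts describe patterns noticed in the data. The genes were named with the contrast known, which can favour a wild type highest and a mutant lowest. Of the 16 probe sets 4 are of Mobp, so the counts are not independent. Nothing is read from their distance to the shares over all probe sets. The mean absolute deviation of the 16 probe sets from the group mean was 0.146 in mutant 8, 0.135 in mutant 9, 0.104 in mutant 7, 0.0975 in wild type 6, 0.0817 in wild type 4 and 0.0482 in wild type 5. Over all probe sets it was 0.11, 0.0944, 0.0671, 0.053, 0.0635 and 0.0575 in the same mice.

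**Figure D4:**
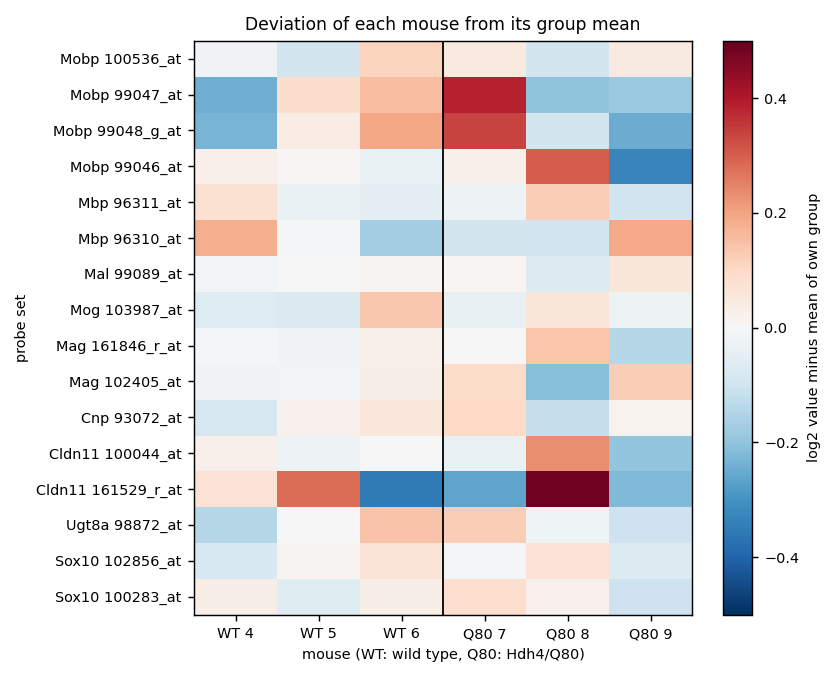
Log2 value of each mouse minus the mean of its own group, for the 16 probe sets (red above, blue below; black line between wild type, WT, and Hdh4/Q80, Q80). Mutant 8 is above its group mean on Mobp 99046_at, Cldn11 and Mag 161846_r_at, and below it on Mobp 99047_at and Mag 102405_at.

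Array-wide measures also varied between the mice. Mutant 8 had the lowest mean correlation with the other arrays (0.992, against 0.995 to 0.997). The 3′ minus 5′ difference of the beta-actin control probe sets, a measure of how far labelled RNA extends from the 3′ end, was 0.858 and 0.855 in mutants 8 and 9, 0.634 in mutant 7 and 0.566 to 0.73 in the wild types. On Gapdh the order was another: the same measure was 0.116, 0.21 and 0.33 in mutants 7, 8 and 9 and 0.221 to 0.259 in the wild types, so mutant 8 lay just below the wild types, mutant 7 lowest and mutant 9 highest. The part of RNA quality in the myelin values was not tested.

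Other genes of the myelinating cell had differences no larger than 0.15 in either direction, and 0 passed limma's test. Of 18 measured genes of myelin and mature oligodendrocytes outside the 9, 12 were below 0 and 6 above, with a median of -0.04 and a range of -0.15 to 0.11. The 4 with the smallest p-values were Josd2, a deubiquitinase (-0.14 ± 0.0813, SE), the lysophosphatidic acid receptor Lpar1 (-0.12 ± 0.0735), Padi2, which citrullinates myelin basic protein (0.11 ± 0.0678), and the gap junction protein Gjb1 (-0.11 ± 0.0747). Lpar1 read 8.63, 8.56 and 8.68 in the wild types and 8.48, 8.43 and 8.59 in the mutants, with overlap between wild type 5 and mutant 9. Of these 18 genes 1 had all mutants above all wild types and 1 all below, near the shares of 5.87% and 5.22% over all genes. The first was Padi2 (8.33, 8.34 and 8.42 against 8.44, 8.48 and 8.53). The second was Evi2a, a membrane protein gene (8.61, 8.58 and 8.60 against 8.46, 8.55 and 8.52), though its groups overlapped on its other probe set (difference -0.03). Josd2 was lowest in mutant 8 (8.84, against 9.04 to 9.16 in the other mice). The list's median was -0.02 without mutant 8 and -0.08 without mutant 9.

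On their brightest probe sets, the measured galactolipid and sphingolipid genes followed the same small scale. The list was not confined to genes particular to myelin. Of its 13 genes 9 were measured, and Gal3st1 and Fa2h were not. Of these 9 genes 5 were below 0 (median -0.04), and 0 were called. Ugcg, which makes glucosylceramide, had a difference of -0.14 ± 0.099, and Galc, which breaks down galactosylceramide, one of -0.06 ± 0.0706. The other Ugcg probe set differed by -0.16 ± 0.125. Psap differed by 0.01 on its brightest probe set and by -0.40 ± 0.249 and 0.13 ± 0.0775 on the others.

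Listed transcription factors other than Sox10 went in both directions. Of 19 listed, 11 were measured, and Olig1 and Olig2 were not. Of the 11, 4 were below 0 and 7 above (median 0.02), with 0 called. The list mixes factors of different roles, so its median does not describe those that drive myelin genes. Hes5, a Notch target, was highest in the list at 0.15 ± 0.0734, with mutants at 7.03, 7.14 and 7.18 and wild types at 6.90, 6.98 and 7.02. Its groups did not overlap, as in 5.87% of all genes in this direction, but its other probe set differed by -0.0044. Nkx2-2, a factor of the oligodendrocyte lineage, differed by -0.13 ± 0.127, and Myrf, which drives myelin genes in mature oligodendrocytes, by -0.05 ± 0.0736.

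Of 5 measured precursor markers, 3 were below 0 (median -0.06, 0 called). C1ql1 differed by -0.20 ± 0.0798 and the receptor phosphatase Ptprz1, which astrocytes also express, by -0.21 ± 0.099; the other Ptprz1 probe sets differed by -0.0091 and 0.04. Pdgfra, the defining receptor of the precursors, differed by 0.06 ± 0.0704, and by 0.07 and -0.04 on its other probe sets.

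Genes of axonal partners, nodes and myelin inhibitors were mostly below 0, with 11 of 12 measured (median -0.07) and 0 called. The neurofilament light and medium chains, Nefl and Nefm, differed by -0.34 ± 0.117 and -0.30 ± 0.138. Nefl read 7.46, 7.65 and 7.75 in the wild types and 7.54, 7.15 and 7.15 in the mutants. As on Mobp 99047_at, mutant 7 lay above wild type 4 while mutants 8 and 9 lay below every wild type. Kcna1, a potassium channel beside the node, differed by -0.26 ± 0.12. Cntnap1, which forms the axonal side of the junction with myelin, differed by -0.07 ± 0.0778.

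Markers of other cells also varied between the mice. Of 12 microglia markers 11 were below 0 (median -0.09), of 11 astrocyte markers 8 (median -0.13) and of 6 general neuron markers 6 (median -0.14). The 5 striatal spiny neuron markers had a median of 0.02 and the 9 endothelial markers one of 0.00. In these lists 0 genes were called. Differences as low as those of Mobp and Mal occurred in these lists too. All 3 mutants lay below all 3 wild types in 5 of the 12 microglia markers and 2 of the 11 astrocyte markers. The same held for 1 of the 9 endothelial markers. For comparison, it held for 2 of the 9 myelin genes and 5.22% of all genes. Laptm5, among these microglia markers, was separated narrowly on its brightest probe set (9.61 in wild type 6, 9.60 in mutant 9). Its other probe set had all mutants above all wild types (difference 0.11). In the other direction, 1 astrocyte marker, Glul, had all mutants above all wild types (difference 0.20), an order held by 5.87% of all genes. On the other Glul probe set all mutants lay below all wild types (difference -0.23). The complement genes C1qa, C1qb and C1qc of microglia differed by -0.28, -0.35 and -0.32, with 0.24 on a second C1qb probe set. Vwf, the von Willebrand factor of endothelium, differed by -0.30, but by -0.04 on its other probe set, where the groups overlapped. The neuronal microtubule protein Map2, whose groups overlapped, differed by -0.48. The 2 measured peripheral myelin markers, Egr2 and Pmp22, were below 0 at -0.10 and -0.04. The mean level of the neuron markers was 9.73 to 9.95 in wild types and 9.49 to 9.80 in mutants, and that of the microglia markers 8.30 to 8.39 and 8.11 to 8.28. For the 9 myelin genes the same mean was 9.17 to 9.26 and 9.06 to 9.15. The 4 choroid plexus markers were all above 0, with Ttr at 8.48, 8.32 and 10.26 in the wild types and 8.46, 10.59 and 11.24 in the mutants. Ttr was high in wild type 6 and mutants 8 and 9 and low in the other mice. The part of other cells or of neighbouring tissue in the myelin differences was not tested.

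**Figure D5:**
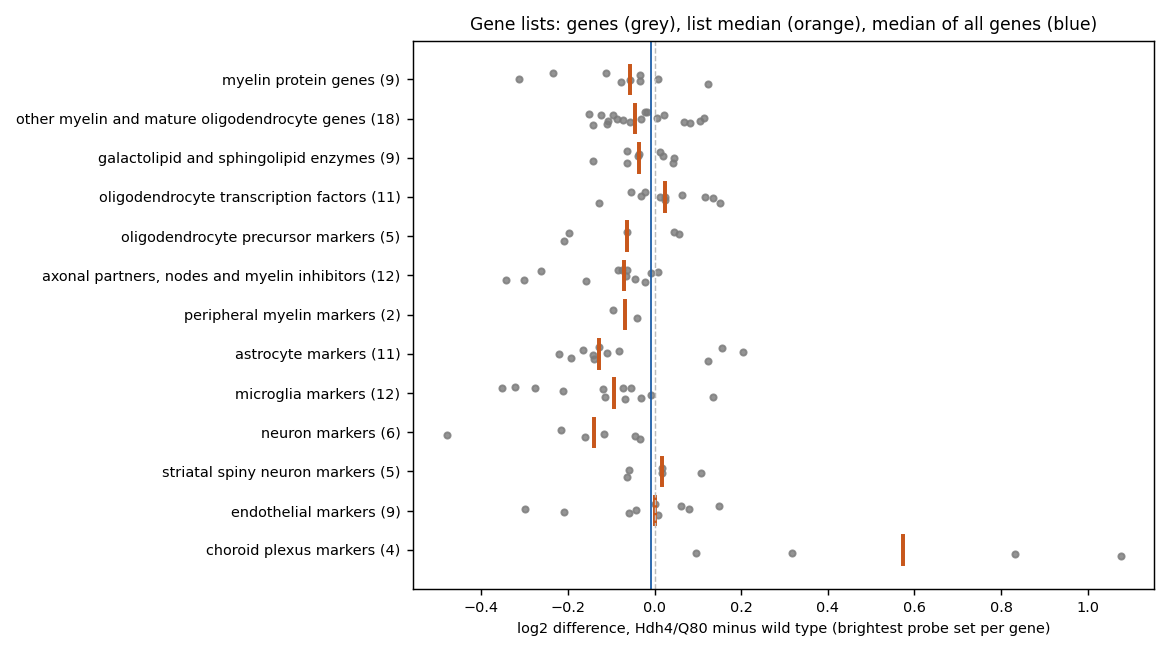
Mutant minus wild-type differences (log2, brightest probe set per gene) by gene list, with the number of measured genes in brackets (grey points, genes; orange bars, list medians; blue line, median of all genes). The myelin protein genes have a median of -0.06, and the choroid plexus markers lie apart with a median of 0.57.

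The genes whose profile over the 6 mice was most like that of Mobp and Mal were on none of the marker or myelin lists. Likeness was the root-mean-square difference of log2 profiles, each centred on its own mean, over 4813 genes of at least median level on their brightest probe set. This measure includes the difference between the groups, by which Mobp and Mal stood out among the members. Neighbours with a like difference follow in part from that choice. The lists hold few of the 4813 genes, so nothing is read from the neighbours being on none of them. Closest to Mobp were Tubb2a, a beta-tubulin (0.0448), the linker histone H1f2 (0.0473), Trp53inp2 (0.0586), Smad7, an inhibitor of TGF-beta signalling (0.0589), and Mrpl15, a mitochondrial ribosomal protein (0.0641). The median over all genes compared was 0.176. Mal was in place 11 for Mobp (0.0711), followed among the members by Sox10 at 1024. Mbp and Cldn11 were at 3551 and 3661, and Cnp and Ugt8a, below the median level, were not ranked.

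Closest to Mal were Rangap1, an activator of the Ran GTPase (0.0294), Mrpl28 (0.0302), the aldehyde dehydrogenase Aldh7a1 (0.0369), the brain metallothionein Mt3 (0.0429) and Sec14l2 (0.0442), against a median of 0.137. Mobp was in place 114 for Mal. Tubb2a read 10.72, 10.65 and 10.91 in the wild types and 10.60, 10.37 and 10.56 in the mutants, the same order of mice as Mobp 100536_at.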

How the data were processed

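Biotin-labelled RNA from the striatum was measured on Affymetrix arrays, per the labels' protocols. The authors deposited log2 values that RMA (affy) had summarised for each probe set, per the submitters' processing notes, which as used here give no versions. RMA equalises intensity distributions between arrays, so it removes a global change in RNA amount. Values ran from 2.57 to 14.24, with no detection calls, and the number of arrays limits precision.

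Of 12488 rows, 66 control probe sets were left out. Symbols came from the platform annotation: 10833 probe sets had 1 symbol, 396 several and 1193 none. The probe set with the highest mean stood for a gene in lists. Hdh4/Q80 and wild type, grouped by sample title, were compared with limma 3.58.1 in R 4.3.3 (lmFit, eBayes; 4 residual and 5.81 prior degrees of freedom), Benjamini-Hochberg adjusted over all probe sets at 0.05; the script was tested on simulated data. The members and lists were chosen with earlier results of these data known. The rule named every member probe set, up to 4 genes of smallest p per other list, and the 5 profiles nearest to Mobp and to Mal. Myrf, Cntnap1, Evi2a, Laptm5 and Psap fall outside it and were named after their values were seen. Alternatives were a filter on the dimmest 40% of probe sets, array weights, trended and robust moderation, cyclic loess, quantile normalization, median centring, averaging a gene's probe sets, and omission of each mouse in turn. Each array was taken as 1 mouse, as the design text counts them.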

Additional observations from a re-analysis of the deposited data

How the results depend on the processing

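The count of probe sets called by limma was 0 under each of the 12 alternatives run, leaving out each mouse included. The median difference of the 9 myelin genes stayed below 0 in its 13 alternatives, from -0.10 to -0.01 with 1 mouse left out and from -0.10 to -0.05 in the others; that of the 18 other myelin genes ran from -0.08 to -0.02 and from -0.07 to -0.03. Single probe sets gave 189 values under alternatives: 12 had the opposite sign, on Mbp 96311_at, Mag 161846_r_at, Ugt8a, Mog, Cldn11 100044_at and Mobp 99046_at, and 1 moved by more than the spread between mice, Mobp 99047_at with array weights (-0.22). Those weights rested the mutant side mainly on mutant 7 (6.19, against 0.228 and 0.405 for mutants 8 and 9). The filter on dim probe sets removed Cnp, Ugt8a and Cldn11 161529_r_at, which gave no value there. No paired analysis was run, since the labels as used here pair no mutant with a wild type and name no litters. Dim probe sets could not be told from background, since detection calls were not used here.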
